A study of Sus scrofa with 23 samples.

Results

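The 6 kidney cortex libraries labelled WT give a baseline of RNA levels in the newborn pig kidney. They were chosen by their genotype label, Wild-type, are named WT12, WT16, WT17, WT18, WT22 and WT23 after the pigs, and make up 6 of the 23 libraries of the series. The series sequenced total RNA of kidney cortex from newborn pigs, with 11 libraries labelled CFTR-/- (CF) and 6 labelled CFTR+/- (HET) beside those labelled WT. By the study's methods the piglets came from matings of CFTR+/- animals and were supplied by Exemplar Genetics. By the labels, pieces of cortex were meant to come from like places in each kidney, ribosomal RNA was depleted with RiboZero, and stranded libraries were read on an Illumina NovaSeq. Each library stands for 1 pig, and neither sex, litter nor exact position within the cortex is given for any of them.

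The kidney cortex holds glomeruli, in which podocytes and a fenestrated endothelium filter the blood, and above all proximal tubules, whose cells take back sugar, amino acids, phosphate and filtered protein and can make glucose. The thick ascending limb, the distal convoluted tubule and the collecting duct follow and set the salt, acid and water content of the urine. In the pig new nephrons still form after birth, so the outer cortex of a newborn holds progenitors and immature segments beside working nephrons.

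Levels are TPM, counts of transcripts per effective length at a fixed sum per library, summed per gene symbol. RN18S, the 18S ribosomal RNA left after depletion, was taken out and the rest of each library was scaled to 1000000 TPM. The libraries held from 37975426 estimated counts in WT22 through a median of 42709608 to 48454375 in WT16, and a floor of 3 counts lay between 0.0619 and 0.0790 CPM (counts over the library total, scaled to a sum of 1000000). Floors and intervals cover counting error only. Of 26687 symbols, 16692 had a mean of at least 1 TPM, 14173 of them protein-coding, and 1886 had no count in any of the 6 libraries. Values after ± are SDs over these 6 libraries, and a coefficient of variation (CV) is the SD over the mean in percent. The highest CV of a list is that among members with a mean of at least 5 TPM. A library is named as high or low for a gene or list of genes only where it kept that place under 6 ways of scaling, or under the 4 or 5 of them that keep the gene, while counts of genes highest or lowest in a library are those of this scaling.

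WT12 stands apart from the other 5 libraries in its residual ribosomal RNA. RN18S took 7.11% of its estimated counts (95% Wilson interval 7.10% to 7.12%) and between 0.0890% and 0.396% in the other 5. The 7 other entries of the scaffold that carries RN18S summed to 88164 TPM in WT12, 86066 TPM in WT18 and 70276 TPM in WT16. They summed to 45293 to 50905 TPM in the rest, so WT12 did not stand apart in this sum. Log2 levels of 14173 protein-coding genes correlated between 2 libraries with Pearson's r from 0.959, for WT12 and WT22, to 0.990, for WT22 and WT23. These correlations run across genes, which are not independent replicates. Protein-coding genes held 41.8% ± 4.01 of the scaled TPM, from 35.8% in WT12 to 45.8% in WT22.

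CFTR, the chloride channel gene disrupted in the series, goes against the label. It lay at 0.263 TPM at the lowest, 0.487 TPM at the median and 0.730 TPM at the highest in the libraries labelled WT, from 60.0 to 178 estimated counts. The lowest CFTR level was 1.88 TPM among the libraries labelled HET and 2.29 TPM among those labelled CF. All 6 libraries labelled WT had less CFTR RNA than each of the other 17, under every scaling tried, so they are called by their label here and not by a genotype. No other gene was compared between the labels.

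Some genes of the Y chromosome split the 6 libraries. The 17 protein-coding Y genes with a mean of at least 1 TPM summed to 228 TPM in WT12 and 288 TPM in WT17, against 23.1 to 33.5 TPM in the other 4. Of these 17 genes 10 were at least 2-fold higher in both WT12 and WT17 than in each other library, and 7 were not. Except for LOC100624329, the 10 lay below 1 TPM in the other 4 libraries. They thus reached the minimum mean only through WT12 and WT17, so their share of the 17 is no measure of the chromosome. The 7 that were not higher in both lie apart from the 10 on the chromosome. They start at or before base 7661275, the start of XG, and the 10 at or after base 8937949, that of LOC110255320. Among the 7, DHRSX was 6.92 TPM in WT12, 7.17 TPM in WT17 and up to 13.7 TPM. EIF1AY, a translation initiation factor gene of the Y chromosome, stood at 14.2 TPM in WT12, 19.2 TPM in WT17 and at most 0.105 TPM in the rest. SRY, the testis-determining gene, had at most 1 count in any of the 6 libraries, and 90.9% of its 31-base words also occur in a second annotated copy, LOC106504154, which had 0 counts. The other 7 Y-linked genes listed are not in the annotation table under their symbols.

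The single most abundant RNA was the 7SL RNA, the RNA core of the signal recognition particle that leads nascent secretory and membrane proteins to the endoplasmic reticulum. Its gene held 45.9% ± 3.59 of all TPM. It stood at 421948 TPM at the lowest, 449668 TPM at the median and 504605 TPM at the highest. WT12 and WT16 had more than 50% of their TPM in this RNA, and the other 4 had less. MIR6782, annotated as a microRNA precursor, came next with 37313 TPM at the lowest, 50050 TPM at the median and 73590 TPM at the highest. Its 75 bases lie inside an unplaced scaffold that also carries RN18S and the 5.8S ribosomal RNA, and the effective length behind its TPM was 10.1 to 14.4 bases. For the 282 bases of 7SL RNA the effective length was 132 to 140 bases, so both levels weigh heavily per count. MIR6782 is shown as the second most abundant gene, read from the RefSeq annotation of Sscrofa11.1 on the forward strand, with no capitals as no motif was searched in it.
MIR6782: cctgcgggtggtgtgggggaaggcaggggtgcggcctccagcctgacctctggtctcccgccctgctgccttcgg

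Other abundant RNAs without a protein-coding transcript were uncharacterized or ribosomal. LOC110260298, a long noncoding RNA entry of 165 bases, averaged 24341 ± 4360.4 TPM. LOC106506288, with 183 bases, stood at 20027 TPM in WT22 and 17076 TPM in WT23 and at 4693 to 6778 TPM in the other 4. RN5-8S, the 5.8S ribosomal RNA, reached 10878 TPM in WT12 and 2895 to 4080.2 TPM elsewhere. LOC102158335 averaged 2433 TPM with WT12 and 1133 TPM without it, being 8929 TPM in WT12 and 585 to 1631 TPM in the other 5. It shares 27.1% of its 31-base words with the heat shock gene HSPA1L, so its level is uncertain. LOC106509199 (4342 ± 674 TPM), LOC110261577 (2360.2 ± 417 TPM) and LOC102163816 (1888 ± 209 TPM) complete the noncoding genes among the 20 highest of all. The 20 most abundant genes of any kind held 59.2% ± 3.88 of the TPM.

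The 20 highest protein-coding genes include those of protein synthesis, iron storage and a few kidney products. The 20 highest held 9.51% ± 0.589 of the protein-coding TPM and the 100 highest held 23%. TEX50, annotated as a testis-expressed gene on chromosome 9 (chr9:115968409-115974118), had the highest mean and ranged from 4547 TPM in WT12 through a median of 6090.0 TPM to 6777 TPM, though LOC102158401 lay above it in WT16 and WT18. Whether this level belongs to that gene was not tested. EEF1A1, the factor that brings aminoacyl-tRNA to the ribosome, ranged from 2997 TPM through a median of 3794 TPM to 4206 TPM in WT17. The ferritin light chain FTL, which stores iron, ranged from 1397 TPM in WT12 through a median of 3243 TPM to 4077 TPM in WT23. The heavy chain FTH1 averaged 1284 ± 182 TPM. FTL was lowest in WT12, and the other 5 libraries began at 2961 TPM. Selenium-dependent GPX3, the plasma glutathione peroxidase that the proximal tubule secretes, ranged from 878 TPM in WT12 through a median of 1810.1 TPM to 2159.9 TPM, with 1712 TPM or more in every library but WT12. FXYD2, the gamma subunit of the sodium pump, averaged 1127 ± 175 TPM.

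Genes of the translation machinery filled much of the top. The 77 genes of cytosolic ribosomal proteins held 5.18% ± 0.819 of the scaled TPM, from 3.98% in WT12 to 6.04% in WT22. They made up 9 of the 20 and 53 of the 100 highest protein-coding genes. RPLP1 averaged 1634 ± 163 TPM, RPL37 1589 ± 229 TPM and RPS29 1560.1 ± 364 TPM, while RPL35, RPS24, RPL23, RPS27, RPS12 and RPS20 lay between 1121 and 1323 TPM. Levels of RPLP1, RPS27, RPS20 and of TPT1, the translationally controlled tumor protein (1833 ± 405 TPM), are uncertain because near-identical copies share 65.4%, 30.9%, 25.7% and 36.9% of their words. GAPDH of glycolysis (1280.0 ± 144 TPM) and the actin gene ACTB (1113 ± 84.8 TPM) completed the 20 together with 2 entries on the ribosomal scaffold. These 2 are LOC102158401, annotated as collagen-like (5247 ± 1361 TPM), and LOC110258600, annotated as salivary proline-rich (1437 ± 442 TPM), and 44.7% and 54.8% of their words occur in other transcripts.

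Relative levels were tested within libraries for pairs of genes with related roles. In 26 of 29 pairs (89.7%) 1 gene was higher in 6 of 6 libraries, and each of the 26 had p = 0.031 in a 2-sided exact sign-flip permutation test. The same held for 86.4% of all 100429878 pairs of protein-coding genes with a mean of at least 1 TPM, so an order that holds in every library is not particular to these pairs. That p is the smallest that 6 libraries allow, and it became 0.0349 after Benjamini-Hochberg adjustment over the 29 pairs. Pair values below are mean log2 ratios of TPM ± SD over 6 libraries and belong to these 26 unless a p is given.

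**Figure D1:**
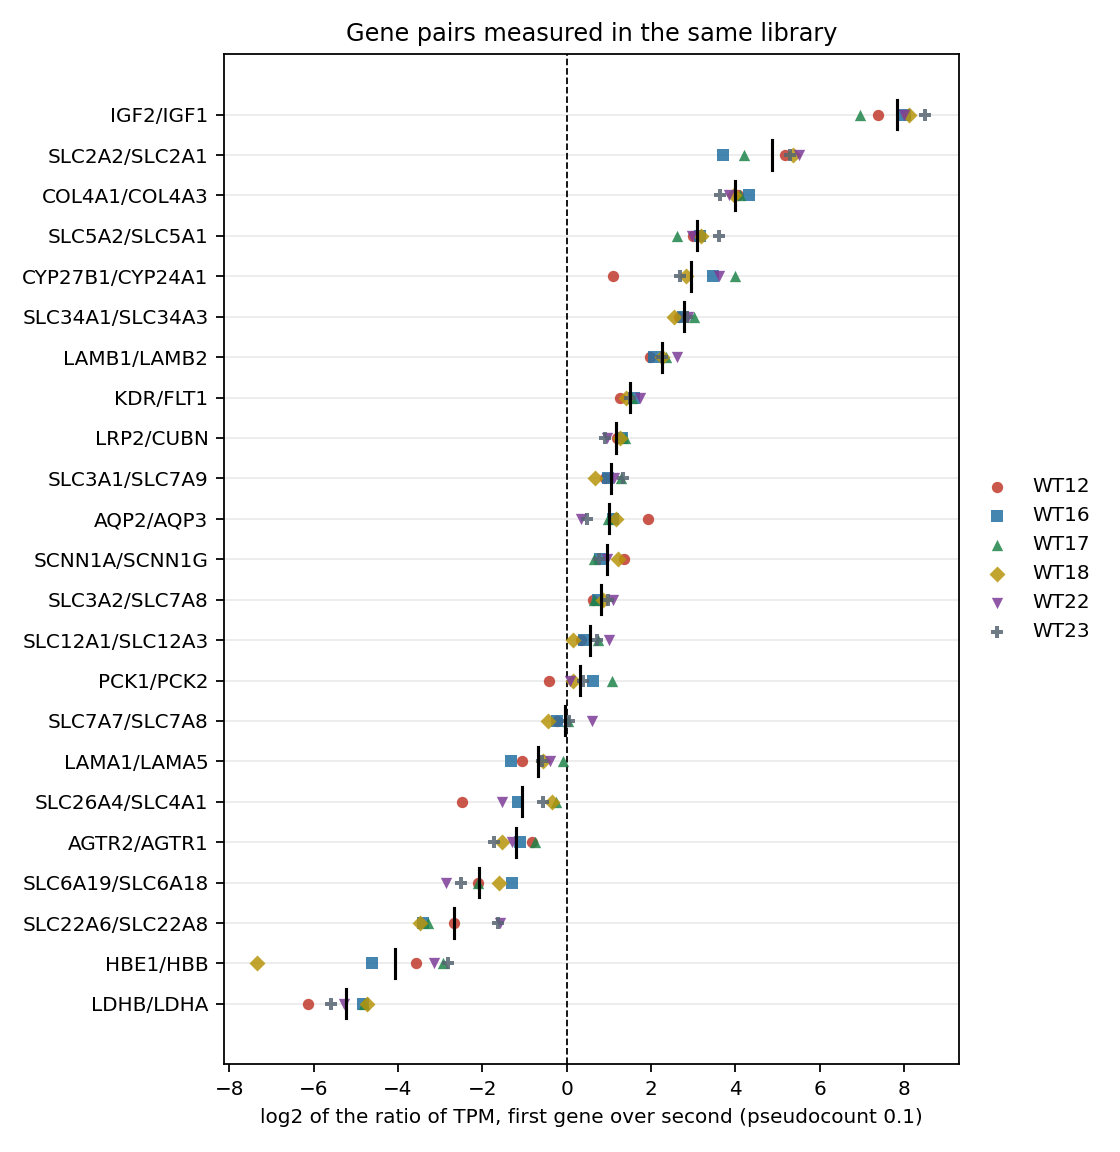
Log2 ratio of TPM between the 2 genes of 23 of the 29 pairs in the 6 libraries labelled WT, 1 point per library with the mean. In 21 of these 23 pairs all 6 points lie on the same side of 0.

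Proximal tubule genes had the highest sum of the nephron segments, also per gene of the list. Of 41 such genes 40 had a mean of at least 1 TPM, and their sum was 5213 ± 805 TPM, with 4297 TPM in WT12, 4207 TPM in WT16, 5258 TPM in WT17, 5587 TPM in WT18, 5719 TPM in WT22 and 6210.4 TPM in WT23. WT23 was highest under every scaling, while the lowest place passed between WT12 and WT16. Of the 40 genes 17 were highest in WT23, against 13.6% of all 14173 protein-coding genes, and 18 were lowest in WT12, against 31.9%. Protein-coding genes in general were thus often lowest in WT12, as in WT16, with 30.4%. Per gene of the list the mean was 127 TPM, against 58.2 TPM for the thick ascending limb and 61.7 TPM for the distal convoluted and connecting tubule. In bulk tissue, fewer cells of a type and less RNA per cell cannot be told apart, which holds for every marker list here.

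**Figure D2:**
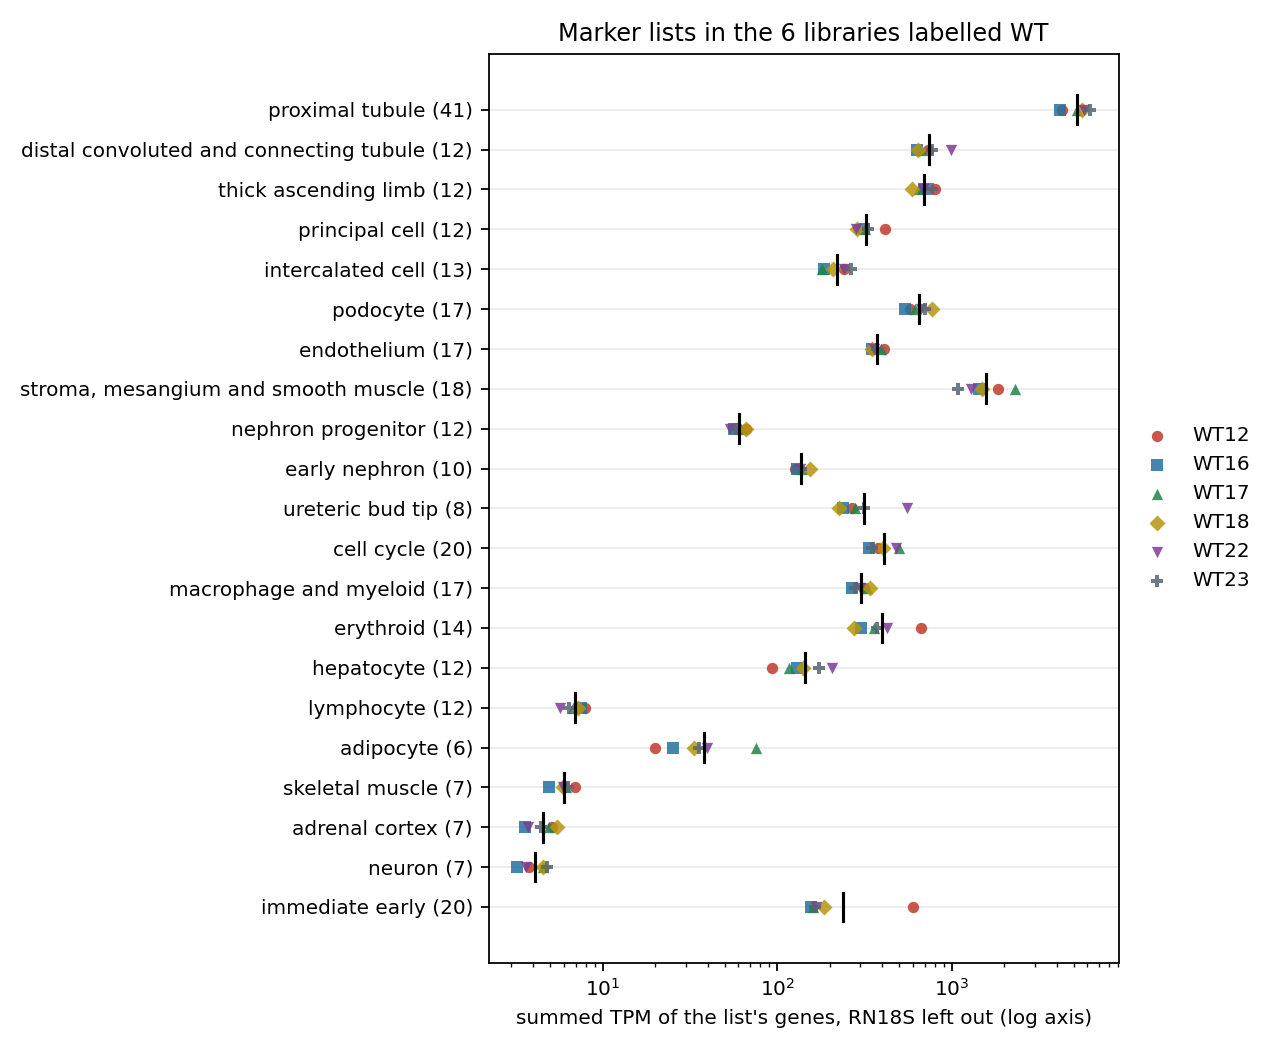
Summed TPM of each list of marker or pathway genes in the 6 libraries labelled WT, on a log axis, 1 point per library. Proximal tubule genes, the longest list of the nephron segments, have the highest sum of them in all 6 libraries.

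Of the glucose carriers named here, SLC2A2 had the highest level. SLC2A2, the basolateral glucose exit carrier, ranged from 252 TPM in WT16 through a median of 854 TPM to 903 TPM. It exceeded the widely expressed SLC2A1 by 4.88 ± 0.74, the smallest ratio being that of WT16. SLC5A2, the high-capacity sodium-glucose carrier of the first segment, ranged from 46.4 TPM in WT22 through a median of 57.7 TPM to 59.4 TPM, low only in WT22. SLC5A1, the high-affinity carrier of the last segment, ranged from 4.69 TPM in WT23 through a median of 6.29 TPM to 9.57 TPM in WT17, and the ratio of SLC5A2 to SLC5A1 was 3.10 ± 0.33. SLC5A2 shares 21.4% of its words with C3H16orf58, so its level carries that uncertainty.

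Phosphate, protein and organic anion uptake genes of the proximal tubule were measured as well. SLC34A1, the main phosphate carrier of the brush border, ranged from 371 TPM through a median of 435 TPM to 497 TPM and was close in all 6 libraries. It exceeded SLC34A3, the second renal phosphate carrier, by 2.78 ± 0.17. Megalin, LRP2, the scavenger receptor for filtered protein, ranged from 257 TPM through a median of 337 TPM to 417 TPM in WT17. Its partner cubilin, CUBN, ranged from 113 TPM in WT12 through a median of 154 TPM to 184 TPM in WT23, with a log2 ratio of 1.17 ± 0.19. The organic anion carrier SLC22A6 had the highest CV of the list and ranged from 13.1 TPM through a median of 15.8 TPM to 58.0 TPM in WT23, with 51.2 TPM in WT22. SLC22A8, which takes up organic anions on the same membrane, ranged from 109.5 TPM in WT12 through a median of 148 TPM to 178 TPM in WT23, and the ratio of SLC22A6 to SLC22A8 was -2.67 ± 0.88. SLC22A6 was thus the lower gene in every library.

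Of the amino acid transport genes 33 of 36 had a mean of at least 1 TPM and the sum was 828 ± 129 TPM, from 615 TPM in WT12 to 952 TPM in WT23. SLC3A2, the heavy chain of basolateral exchangers, was the most abundant and ranged from 68.8 TPM in WT12 through a median of 95 TPM to 147 TPM in WT18. TMEM27, or collectrin, which brings neutral amino acid carriers to the brush border, ranged from 58.1 TPM in WT12 through a median of 88.2 TPM to 105 TPM in WT23. SLC1A5, a neutral amino acid exchanger, ranged from 31.7 TPM in WT12 through a median of 66.3 TPM to 89.7 TPM in WT23. Both were lowest in WT12. The cystine carrier subunits SLC3A1 and SLC7A9 had a ratio of 1.05 ± 0.25, where SLC3A1 ranged from 20.9 TPM in WT12 through a median of 45.0 TPM to 80.7 TPM in WT23 and shares 24.1% of its words with its neighbour PREPL. SLC3A2 exceeded its light chain SLC7A8 by 0.82 ± 0.19. SLC7A7 and SLC7A8, both light chains, were each higher in 3 of 6 libraries (log2 ratio -0.04 ± 0.36, exact permutation p = 0.75, adjusted p = 0.75 over 29 pairs). Of the brush-border carriers of neutral amino acids and glycine, SLC6A19 lay below SLC6A18 with a ratio of -2.08 ± 0.57.

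All 12 genes of gluconeogenesis and ammonia formation had a mean of at least 1 TPM, with a sum of 2796 ± 647 TPM, from 1739 TPM in WT12 to 3509 TPM in WT23. Of these 12 genes 10 were lowest in WT12, as were 31.9% of all 14173 protein-coding genes. G6PC, the last enzyme of glucose release, ranged from 277 TPM in WT12 through a median of 634 TPM to 807 TPM in WT17. FBP1, fructose bisphosphatase, ranged from 187 TPM through a median of 242 TPM to 338 TPM in WT23. PCK1, the cytosolic enzyme that commits carbon to glucose, ranged from 47.3 TPM in WT12 through a median of 113 TPM to 187 TPM in WT17 and had the highest CV of the list. PCK1 was higher than its mitochondrial form PCK2 in 5 of 6 libraries (log2 ratio 0.32 ± 0.51, exact permutation p = 0.188, adjusted p = 0.194 over 29 pairs).

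Fat oxidation had 11 of 12 genes at a mean of at least 1 TPM and a sum of 809 ± 126 TPM, from 614 TPM in WT12 to 952 TPM in WT22. HADHA of the mitochondrial trifunctional protein ranged from 129 TPM through a median of 146 TPM to 184 TPM in WT17. ACADM, which oxidizes medium-chain acids, ranged from 69.9 TPM in WT12 through a median of 145 TPM to 185 TPM in WT22. ACADVL, for very long chains, averaged 97.9 ± 11 TPM. CPT1A, which admits fatty acids to mitochondria, ranged from 60.2 TPM through a median of 72.6 TPM to 126 TPM in WT22.

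Glycolysis had 15 of 16 genes at a mean of at least 1 TPM and a sum of 3219 ± 378 TPM, highest in WT22. Of the 16 listed symbols GAPDH had the highest mean, followed by ENO1, the enolase of most tissues (434 ± 88.9 TPM), and ALDOA (319 ± 22.6 TPM). TPI1 had the highest CV (23%). Lactate dehydrogenase depends on which annotated copy is read. The symbol LDHB belongs to a 1-exon copy on chromosome 2 with 1.15 ± 0.519 TPM, so that LDHB stood -5.23 ± 0.55 on the log2 scale against LDHA, the muscle-type subunit (44.0 ± 8.98 TPM). The entry LDHB_1 on chromosome 5, chosen after its values were seen, held 621 ± 92.9 TPM and exceeded LDHA by 3.83 ± 0.28 in 6 of 6 libraries, with no test because of that choice. The 2 LDHB entries share 76.6% of the words of LDHB, and read together they turn the pair to 3.83. The glycolysis list holds LDHB but not LDHB_1. Its sum and order thus leave out LDHB_1, whose mean lay above that of ENO1.

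Thick ascending limb genes summed to 698 ± 76.5 TPM, from 596 TPM in WT18 to 802 TPM in WT12, and 12 of 12 had a mean of at least 1 TPM. SLC12A1, the sodium-potassium-chloride carrier that furosemide blocks, supplied 29.1% and ranged from 170.2 TPM in WT18 through a median of 208 TPM to 228 TPM in WT12. UMOD, the most abundant protein of urine, ranged from 101 TPM in WT18 through a median of 150.0 TPM to 210.3 TPM in WT12. CLDN10, a claudin of the sodium-selective tight junction, ranged from 52.9 TPM in WT12 through a median of 74.9 TPM to 78.2 TPM. UMOD and SLC12A1 were both highest in WT12 and lowest in WT18. SLC12A1 exceeded the thiazide-sensitive carrier SLC12A3 by 0.56 ± 0.32.

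Distal convoluted and connecting tubule genes summed to 740.2 ± 133 TPM, and 12 of 12 had a mean of at least 1 TPM. CALB1, the calcium-binding calbindin of the distal tubule, supplied 36.4% and ranged from 174 TPM in WT18 through a median of 231 TPM to 511 TPM in WT22. SLC12A3 ranged from 110.1 TPM in WT22 through a median of 133 TPM to 179.8 TPM in WT12. The potassium channel KCNJ16 ranged from 64.8 TPM in WT12 through a median of 97.1 TPM to 114 TPM in WT23. S100G, a second calbindin, had the highest CV of the list and ranged from 5.61 TPM in WT12 through a median of 12.5 TPM to 27.6 TPM in WT22. CALB1 and S100G were both highest in WT22, whose list sum of 986 TPM was the highest, while SLC12A3 was lowest there. Of the 12 genes 5 were highest in WT23 and 4 in WT22, against 13.6% and 26.6% of all 14173.

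Collecting duct cells of both kinds were represented. Principal cell genes summed to 325 ± 49.0 TPM, 11 of 12 with a mean of at least 1 TPM, and reached 417 TPM in WT12 against 282 to 330 TPM in the other 5. AQP2, the vasopressin-controlled water channel, ranged from 58.3 TPM in WT22 through a median of 84.6 TPM to 142 TPM in WT12 and exceeded AQP3, the basolateral water channel, by 1.0 ± 0.57. FXYD4, a sodium pump regulator, ranged from 37.8 TPM in WT18 through a median of 61.4 TPM to 70.9 TPM. HSD11B2, which keeps cortisol from the aldosterone receptor, ranged from 38.4 TPM in WT17 through a median of 53.1 TPM to 63.9 TPM in WT12. Of the sodium channel subunits SCNN1A exceeded SCNN1G by 0.96 ± 0.28. Intercalated cell genes summed to 221 ± 34.0 TPM, 12 of 13 with a mean of at least 1 TPM, and were lowest in WT17. ATP6V1B1, a proton pump subunit, ranged from 55.8 TPM in WT17 through a median of 67.1 TPM to 81.2 TPM. TMEM213 ranged from 39.8 TPM in WT18 through a median of 48.5 TPM to 63.7 TPM. RHCG, an ammonia channel, ranged from 17.4 TPM in WT17 through a median of 20.6 TPM to 33.1 TPM in WT12. ATP6V1G3, another pump subunit, had the highest CV, 41.5%. SLC26A4, the pendrin of bicarbonate-secreting cells, lay below SLC4A1, the chloride-bicarbonate exchanger of acid-secreting cells, with a ratio of -1.05 ± 0.86.

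Chloride channel genes summed to 257 ± 9.82 TPM, and 9 of 14 had a mean of at least 1 TPM, CFTR not being one of them. CLCN5, which acidifies endosomes of the proximal tubule, ranged from 78.8 TPM through a median of 90.9 TPM to 101 TPM. CLCN3, an endosomal exchanger, ranged from 35.4 TPM through a median of 44.6 TPM to 56.2 TPM in WT23. The order of the libraries for the sum changed with the scaling, and its CV rose from 3.82% to 8.65% with only protein-coding genes in the scaling.

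Genes of glomerular podocytes all had a mean of at least 1 TPM, 17 of 17, and summed to 646 ± 85.8 TPM, highest in WT18 at 772 TPM. PODXL, the negatively charged podocalyxin, ranged from 78.8 TPM in WT22 through a median of 98.7 TPM to 134 TPM in WT18, with 12.2% of its words shared with other transcripts. VEGFA, the growth factor that podocytes and tubules supply to capillaries, ranged from 74.3 TPM through a median of 98.4 TPM to 119 TPM in WT23. LMX1B, a transcription factor of podocytes, had the highest CV of the list, 26.5%.

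Endothelial genes were likewise all at a mean of at least 1 TPM, 17 of 17, with a sum of 372 ± 24.5 TPM, highest in WT12. The CV of this sum rose from 6.59% to 14.3% with only protein-coding genes in the scaling. PLVAP of the diaphragms of fenestrae ranged from 49.5 TPM in WT22 through a median of 58.6 TPM to 74.3 TPM in WT12. PECAM1 of endothelial junctions ranged from 45.7 TPM in WT18 through a median of 50.9 TPM to 74.2 TPM. EGFL7, a protein endothelial cells secrete, ranged from 41.7 TPM in WT17 through a median of 47.7 TPM to 56.3 TPM in WT12. EMCN, a sialomucin of capillaries, had the highest CV of members with a mean of at least 5 TPM, 25.6%. Of the VEGF receptors KDR exceeded FLT1 by 1.51 ± 0.17.

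Stromal, mesangial and smooth muscle genes summed to 1577 ± 442 TPM, 17 of 18 with a mean of at least 1 TPM. WT17 was highest at 2315 TPM and WT23 lowest at 1083 TPM, and 9 of the 17 genes were highest in WT17, against 17.1% of all 14173. Collagen genes led, and COL3A1 ranged from 298 TPM in WT23 through a median of 419.7 TPM to 686 TPM in WT17. COL1A2 ranged from 137 TPM in WT23 through a median of 219 TPM to 405 TPM in WT17. COL1A1 had the highest CV of the list and ranged from 57.2 TPM in WT23 through a median of 123 TPM to 236 TPM in WT12. ACTA2, smooth muscle actin, ranged from 133 TPM in WT23 through a median of 206 TPM to 309 TPM in WT17. COL3A1, COL1A2 and ACTA2 were highest in WT17, COL1A1 in WT12, and all of them were lowest in WT23.

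Basement membrane genes all had a mean of at least 1 TPM, 15 of 15, and summed to 1332 ± 156 TPM, lowest in WT22. COL4A1 ranged from 332 TPM in WT22 through a median of 411 TPM to 464 TPM. Its partner chain COL4A2 ranged from 180.5 TPM in WT22 through a median of 229 TPM to 292 TPM in WT12. LAMB1, a laminin beta chain, ranged from 162 TPM through a median of 185 TPM to 206 TPM. HSPG2, perlecan, had the highest CV, 29.7%, and was highest in WT12. COL4A1 exceeded COL4A3, a chain of the mature glomerular membrane, by 3.99 ± 0.24. LAMB1, of the immature glomerular membrane, exceeded LAMB2, which replaces it, by 2.26 ± 0.23, while LAMA1 lay below LAMA5 with a ratio of -0.67 ± 0.45.

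Nephron progenitor genes summed to 60.4 ± 5.47 TPM, 10 of 12 with a mean of at least 1 TPM, and were lowest in WT22. HOXA11, a patterning gene of the metanephric mesenchyme, ranged from 11 TPM in WT22 through a median of 12.3 TPM to 15.1 TPM. PAX2, a regulator of nephron and duct formation, ranged from 8.25 TPM in WT22 through a median of 11.8 TPM to 16.4 TPM in WT12. SALL1, needed to keep progenitors, ranged from 9.66 TPM in WT17 through a median of 11.3 TPM to 13.7 TPM. SIX2, the defining factor of cap mesenchyme, ranged from 0.275 TPM in WT16 through a median of 0.712 TPM to 0.987 TPM in WT18. Early nephron genes summed to 137 ± 9.93 TPM, 8 of 10 with a mean of at least 1 TPM. JAG1, the Notch ligand of the forming nephron, ranged from 38.1 TPM through a median of 46.0 TPM to 51.8 TPM in WT23. CDH6, a cadherin of the early proximal tubule, ranged from 16.6 TPM in WT12 through a median of 27.5 TPM to 35.7 TPM in WT18. CCND1, cyclin D1, ranged from 17.2 TPM in WT23 through a median of 21.1 TPM to 22.3 TPM. WNT4, the signal that starts epithelium formation, had the highest CV of the list and ranged from 2.87 TPM in WT23 through a median of 7.56 TPM to 12.8 TPM. HES5, a Notch target, had at most 1 count.

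Ureteric bud tip genes, 8 of 8 with a mean of at least 1 TPM, summed to 314 ± 123 TPM, of which CALB1 gave 85.9%. The sum was 555 TPM in WT22 and 227 to 316 TPM in the other 5, but CALB1 was the only 1 of the 8 genes highest in WT22. ETV4 and ETV5, transcription factors under the growth factor GDNF, averaged 14.5 ± 3.75 TPM and 9.72 ± 3.33 TPM. Cell cycle genes, 20 of 20 with a mean of at least 1 TPM, summed to 408 ± 68.5 TPM, and 12 of the 20 were highest in WT17, against 17.1% of all 14173. PCNA, the clamp of DNA replication, ranged from 45.7 TPM through a median of 52.7 TPM to 81.7 TPM in WT22, and the replicative helicase subunits MCM7 and MCM6 averaged 54.2 ± 6.67 TPM and 49.5 ± 12.6 TPM. MKI67, a mark of cycling cells, had the highest CV of the list and ranged from 6.95 TPM in WT22 through a median of 9.26 TPM to 16.1 TPM in WT12.

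Fetal and growth genes summed to 677 ± 81.0 TPM, 12 of 14 with a mean of at least 1 TPM, highest in WT12, though 6 of the 12 genes were highest in WT18 and 5 in WT12, against 25.4% and 13.9% of all 14173. IGF2, the fetal growth factor, supplied 57.3% and ranged from 305 TPM in WT17 through a median of 403 TPM to 466 TPM. It exceeded IGF1, the growth factor that dominates later, by 7.83 ± 0.56, the widest ratio of the 29 pairs. The receptors IGF1R and IGF2R averaged 86.4 ± 13.4 TPM and 64.5 ± 11.3 TPM, and CDKN1C, an imprinted inhibitor of the cell cycle, had the highest CV, 26.8%.

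Hormone genes and receptors summed to 385 ± 9.59 TPM, 17 of 18 with a mean of at least 1 TPM. The CV of this sum rose from 2.49% to 8.74% with only protein-coding genes in the scaling, and the order of the libraries changed. PTH1R, the parathyroid hormone receptor, ranged from 80.2 TPM through a median of 85.2 TPM to 97.4 TPM. KL, klotho, the co-receptor for the phosphate hormone FGF23, ranged from 48.0 TPM through a median of 50.5 TPM to 60.7 TPM, with 75.4% of its words shared with a second copy, LOC110258165. AGTR2, the angiotensin receptor typical of fetal tissue, lay below AGTR1 with a ratio of -1.21 ± 0.38. CYP27B1, which activates vitamin D, ranged from 9.77 TPM in WT12 through a median of 26.8 TPM to 38.7 TPM in WT16 and exceeded CYP24A1, which breaks it down, by 2.95 ± 1.03.

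Of the blood cell genes, myeloid markers lay above lymphocyte markers. Myeloid genes summed to 304 ± 27.4 TPM, 16 of 17 with a mean of at least 1 TPM, led by CD74, the invariant chain of antigen presentation, which ranged from 77.6 TPM through a median of 115 TPM to 166 TPM in WT12. The complement genes C1QB and C1QC of tissue macrophages averaged 28.8 ± 6.39 TPM and 26.4 ± 5.12 TPM. S100A12, a neutrophil calcium-binding protein, had the highest CV and ranged from 7.53 TPM in WT12 through a median of 20.4 TPM to 52.9 TPM in WT18. Lymphocyte genes summed to 6.90 ± 0.791 TPM, with 2 of 12 at a mean of at least 1 TPM, CD8A (2.09 ± 0.229 TPM) and NKG7 (1.75 ± 0.350 TPM) of cytotoxic cells, and they were lowest in WT22. CD79A of B cells averaged 0.814 ± 0.297 TPM and GZMA, a granzyme, had no count under that symbol, while its second entry, GZMA_1, averaged 0.268 ± 0.204 TPM. Erythroid genes summed to 399.9 ± 141 TPM, 7 of 14 with a mean of at least 1 TPM, from 276 TPM in WT18 to 667 TPM in WT12. HBB, beta globin, gave 78.6% and ranged from 210.2 TPM in WT18 through a median of 266 TPM to 561 TPM in WT12, with 50.2% of its words shared with LOC100515788. The embryonic globin HBE1 ranged from 1.20 TPM in WT18 through a median of 35.4 TPM to 47.4 TPM in WT12 and lay below HBB with a ratio of -4.07 ± 1.73. The log2 ratio HBE1/HBB was -3.42 without WT18. KLF1, the erythroid regulator, had at most 2 counts, and the 5 globin genes together held 0.0349% of the TPM.

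Of the genes of neighbouring and distant tissues, those of adrenal cortex, skeletal muscle and neurons each summed to at most 6.90 TPM in any library. Hepatocyte genes summed to 144 ± 40.3 TPM, 6 of 12 with a mean of at least 1 TPM, of which APOA1, the main protein of high-density lipoprotein, gave 82.9%. AFP ranged from 5.40 TPM through a median of 6.81 TPM to 19.5 TPM in WT22, AMBP averaged 6.73 ± 1.02 TPM, and CYP2E1 had at most 1 count. Adrenal cortex genes summed to 4.54 ± 0.768 TPM, 2 of 7 with a mean of at least 1 TPM, led by CYP11A1 (2.65 ± 0.529 TPM), STAR (1.06 ± 0.238 TPM) and MC2R (0.332 ± 0.0369 TPM). Skeletal muscle genes summed to 6.03 ± 0.649 TPM, 3 of 7 with a mean of at least 1 TPM, CKM (2.01 ± 0.318 TPM), TNNI2 (1.20 ± 0.272 TPM) and TNNT3 (1.17 ± 0.315 TPM). Neuron genes summed to 4.09 ± 0.620 TPM, 2 of 7 with a mean of at least 1 TPM, led by NEFL (1.32 ± 0.646 TPM) and TH (1.20 ± 0.503 TPM), followed by NEFM (0.588 ± 0.138 TPM). Inner medulla and urothelium genes summed to 103 ± 34.0 TPM, 3 of 9 with a mean of at least 1 TPM. AKR1B1, aldose reductase, which is not restricted to these tissues, gave 85.1% of that, UPK3A and UPK1B averaged 8.25 ± 3.81 TPM and 5.63 ± 0.769 TPM, and UPK2 had at most 3 counts. Adipocyte genes summed to 76.1 TPM in WT17 and 20 to 39.8 TPM in the other 5, mean 38.3 ± 19.9 TPM, 4 of 6 with a mean of at least 1 TPM. FABP4, the fatty acid binding protein of fat and capillaries, ranged from 5.21 TPM in WT12 through a median of 14.3 TPM to 46.3 TPM in WT17, and LPL and CIDEC averaged 12.1 ± 3.32 TPM and 5.43 ± 2.11 TPM.

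Variation between libraries, 1 per pig, was measured as the CV of TPM over the 6 libraries. Differences between pigs, pieces of cortex and library preparation cannot be told apart in it. It was taken over 10384 protein-coding genes with a mean of at least 5 TPM and at least 100 counts. The median CV was 14.3%, the outer deciles were 7.94% and 24.5%, and counting alone gives a median of 2.30%. A CV of at least 50% was found for 104 genes and of at least 100% for 15. In 399 genes (3.84%) 1 library lay far from the other 5, most often WT12, with 106 genes, of which 45 were high and 61 low, and WT16, with 90, of which 85 were low. Without WT12 the median CV was 12.9%, 79 genes reached 50% and 7 genes reached 100%, and 6 of the 15 most variable genes kept their place.

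**Figure D3:**
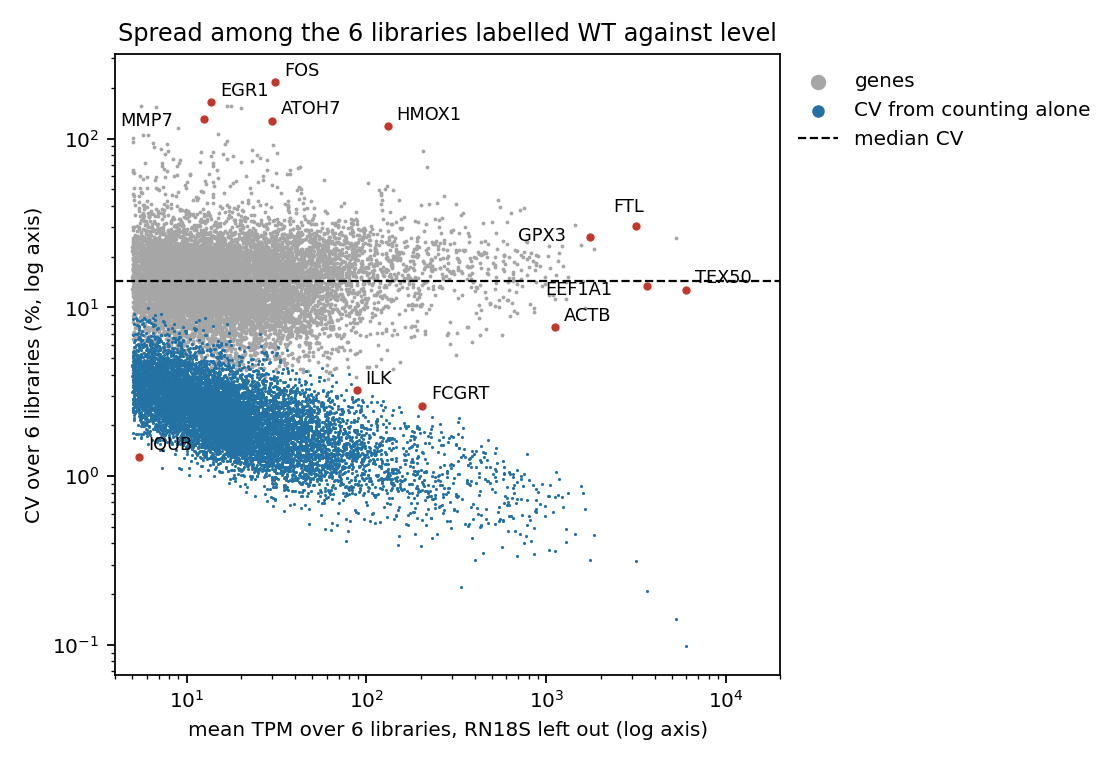
CV over the 6 libraries labelled WT against mean TPM for 10384 protein-coding genes, both axes logarithmic, with some genes of high or low CV or high level named and the CV from counting alone in blue. The median CV is 14.3% and the 15 highest begin at 101%.

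Of the 15 most variable genes 6 lie on the Y chromosome and were highest in WT17 with WT12 beside it, though for LOC100624329 WT17 kept the first place in 2 of 6 scalings. They are EIF1AY (CV 157%) and entries annotated as relatives of a translation initiation factor subunit (LOC100624149, 157%), an RNA helicase (LOC100624590, 157%), a ubiquitin hydrolase (LOC100625207, 155%), thymosin beta-4 (LOC110257905, 152%) and a zinc finger protein (LOC100624329, 105%). Another 6 were highest in WT12, as were 13.9% of all 14173 protein-coding genes. FOS, a subunit of the AP-1 transcription factor, had the highest CV of all 10384 genes, 215%, and ranged from 2.60 TPM in WT17 through a median of 4.16 TPM to 168 TPM in WT12. EGR1, a growth-induced transcription factor, had a CV of 164% and ranged from 2.25 TPM in WT17 through a median of 5.26 TPM to 59.6 TPM in WT12. Without WT12 the CV of FOS was 25.3% and that of EGR1 42.1%. BTG2, an inhibitor of proliferation (115%), and JUNB, another AP-1 subunit (101%), reached 30.1 TPM and 15.2 TPM in WT12 and at most 5.91 TPM and 4.03 TPM elsewhere. Over the other 5 libraries FOS, EGR1, BTG2 and JUNB averaged 3.75, 4.56, 4.75 and 2.96 TPM. These 4 genes thus passed the minimum mean of 5 TPM only through WT12. ATOH7, known as a transcription factor of the retina, ranged from 11.2 TPM in WT17 through a median of 14.7 TPM to 108 TPM in WT12. RBP2, a retinol carrier of the gut, ranged from 1.64 TPM in WT23 through a median of 12.3 TPM to 45.1 TPM in WT12.

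The remaining 3 of the 15 rose in other libraries. HMOX1, which breaks down heme, was 273 TPM in WT22 and 381 TPM in WT23 and 22.8 to 39.3 TPM in the other 4. MMP7, a matrix protease, was 45.6 TPM in WT16 and 2.50 to 8.09 TPM elsewhere. LBP, an acute-phase protein that binds bacterial lipopolysaccharide, was 18.9 TPM in WT18 and 1.85 to 5.96 TPM elsewhere. WT12 and WT17 together held the maximum of 12 of the 15. Of all 14173 protein-coding genes 13.9% were highest in WT12 and 17.1% in WT17. Without WT17, EIF1AY, LOC100625207 and LOC100624329 averaged 2.87, 3.64 and 4.10 TPM, below the minimum mean. Like FOS, EGR1, BTG2 and JUNB, they were thus among the 15 only through their highest library. ATOH7 and RBP2 stayed above that minimum without WT12. LOC100624149, LOC100624590 and LOC110257905 stayed above it without WT17, but lay at 0.855 TPM or less in the other 4 libraries beside WT12 and WT17. These Y chromosome entries thus passed it only through WT17 and WT12. The count of 12 therefore depends in part on the minimum mean.

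**Figure D4:**
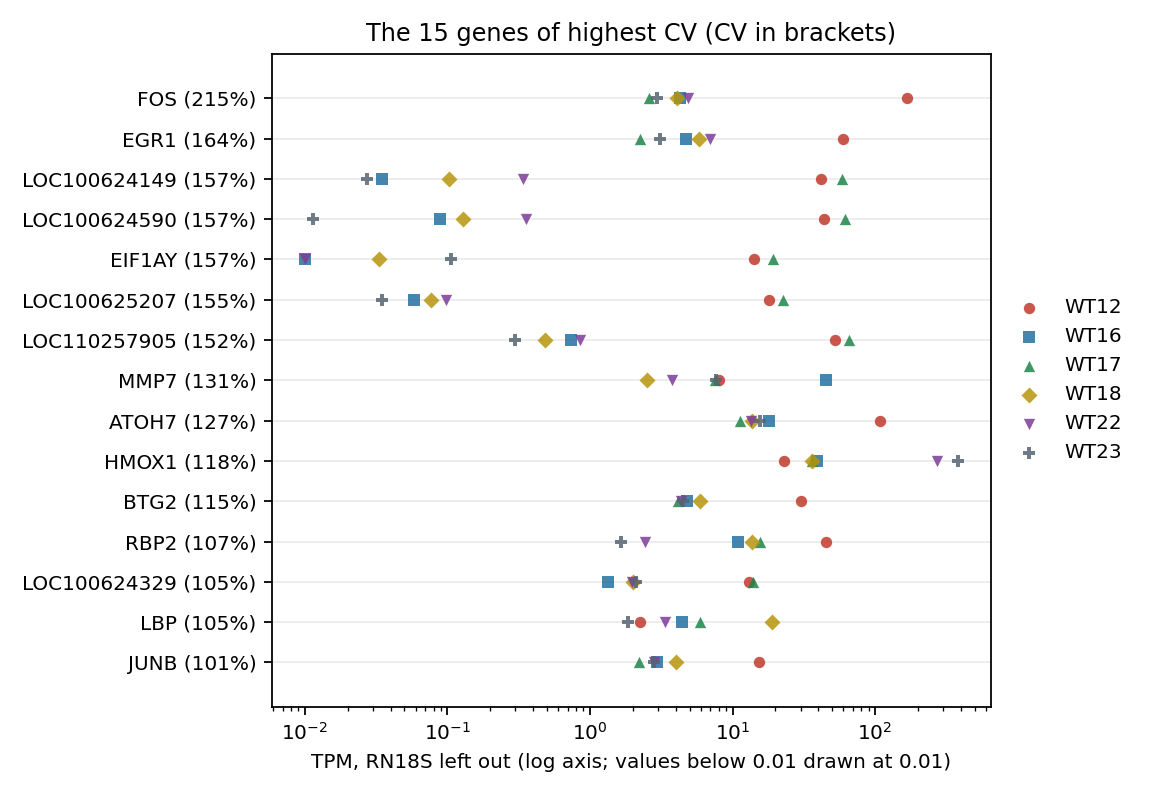
TPM of the 15 most variable genes in each of the 6 libraries labelled WT, on a log axis. FOS, EGR1, BTG2, JUNB, ATOH7 and RBP2 are highest in WT12, and 6 genes of the Y chromosome are high in WT17 and WT12.

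FOS, EGR1, BTG2 and JUNB are immediate early genes, which cells switch on within minutes of a stimulus. Immediate early genes as a list, 17 of 20 with a mean of at least 1 TPM, summed to 599 TPM in WT12 and 167 ± 10.6 TPM over the other 5, and 14 of the 17 were highest in WT12, against 13.9% of all 14173 protein-coding genes. The most abundant on average, IER3, was not among those and ranged from 31.7 TPM in WT16 through a median of 40.2 TPM to 48.5 TPM. DUSP1, a phosphatase that ends MAP kinase signals, ranged from 16.3 TPM through a median of 19.7 TPM to 86.4 TPM in WT12. The part of residual RN18S, also highest in WT12, in these values was not tested. Promoters, from 250 bases before to 50 bases after the start, were searched on both strands for TATAAA, CATATTAGG (a form of the serum response element), TGACGTCA (the cyclic AMP response element) and GTTAATNAT (an HNF1 site). Of the 20 immediate early promoters 4 held TATAAA, 0 held CATATTAGG, 2 held TGACGTCA and 0 held GTTAATNAT, and of all 20653 promoters 11.6%, 0.0872%, 2.16% and 0.780% did. CATATTAGG and GTTAATNAT are so rare among all promoters that a count of 0 in 20 decides nothing about immediate early genes. Other forms of these elements, and sites outside the stretch read, were not searched. The 2 promoters with TGACGTCA, in capitals, belong to BTG2 (chr9:64033603-64033902, forward strand) and DUSP1 (chr16:51457674-51457973, forward strand), and are shown as both genes were highest in WT12. They are read from the genome Sscrofa11.1 at the starts that RefSeq gives.
BTG2 promoter: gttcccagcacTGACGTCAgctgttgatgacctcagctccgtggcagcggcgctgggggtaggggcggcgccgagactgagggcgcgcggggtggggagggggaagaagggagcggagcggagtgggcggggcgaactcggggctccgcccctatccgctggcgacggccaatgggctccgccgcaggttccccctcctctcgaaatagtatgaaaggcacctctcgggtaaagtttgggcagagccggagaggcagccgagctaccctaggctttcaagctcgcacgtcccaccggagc
DUSP1 promoter: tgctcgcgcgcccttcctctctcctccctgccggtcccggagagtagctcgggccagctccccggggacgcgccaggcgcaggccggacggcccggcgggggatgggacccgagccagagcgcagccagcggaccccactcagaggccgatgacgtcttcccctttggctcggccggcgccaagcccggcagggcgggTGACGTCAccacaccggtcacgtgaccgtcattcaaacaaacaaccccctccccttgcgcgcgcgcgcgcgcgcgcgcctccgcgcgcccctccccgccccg

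The least variable genes depended on the scaling. The 15 lowest CVs lay between 1.3% and 3.23%, and 5 of them were at or below what counting alone gives. IQUB, a protein of cilia, had 1.3%, the calcium channel ORAI1 1.79%, and the Golgi protein GOLGA3 2.26%. FCGRT, the receptor that salvages immunoglobulin G and albumin, was the most abundant of the 15 and ranged from 194 TPM through a median of 207 TPM to 208 TPM. Others of the 15 were WTIP, BAMBI, POLDIP3, LMNA, GLIS3, RAD54L2, CGN, CSAD, ASCC2 and ILK, with means from 6.12 ± 0.185 TPM for CSAD to 88.2 ± 2.85 TPM for ILK. With only protein-coding genes in the scaling, without transcripts under 300 bases, or with edgeR TMM or DESeq2 factors, 0 of these 15 stayed among the 15 lowest, and their median CV was 9.98%, 8.99%, 6.86% and 6.91%. With RN18S kept, 8 of the 15 stayed. Without WT12, 5 of the 15 stayed, and without any other single library 3 to 6 did.

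Of the 18 reference genes of quantitative PCR 9 had a CV above the median of the 10384 genes. These genes, all with a mean of at least 1 TPM, summed to 10191 ± 1184 TPM, EEF1A1 leading, highest in WT17, though 7 of the 18 were highest in WT22 and 6 in WT17, against 26.6% and 17.1% of all 14173 protein-coding genes. Low CVs were those of ACTB (7.62%) and GUSB (8.03%), a lysosomal glucuronidase. The highest were those of TFRC (20.7%), the transferrin receptor, PPIA (20.4%), a prolyl isomerase, and PGK1 (20.1%) of glycolysis. The levels of PPIA and B2M, with 25.9% of the words of PPIA and 97.5% of those of the second B2M entry shared, are uncertain. Over the 6 scalings the CV of ACTB ran from 6.65% to 16% and that of PGK1 from 12.7% to 20.9%.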

How the data were processed

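Kidney cortex RNA of 23 newborn pigs was read from 1 table per library. The authors pseudoaligned reads to RefSeq pig transcripts (Sscrofa11.1) with kallisto and deposited its estimated counts for each transcript. Beside them the authors deposited TPM, the estimates per effective length at a fixed sum per library. Values of 77689 transcripts were summed to 26687 symbols, RN18S was removed and each library was scaled to 1000000 TPM. The members and lists were chosen with earlier results of these data known.

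The 34 lists were described by the members with a mean of at least 1 TPM and by their sum. For 29 pairs the mean log2 ratio (pseudocount 0.1) was tested by a 2-sided exact sign-flip permutation test with Benjamini-Hochberg adjustment. CVs were taken over protein-coding genes with a mean of at least 5 TPM and 100 counts. A library was called far from the others where its gap to the next exceeded 0.625 of the range. Named genes are the 20 most abundant protein-coding genes and the noncoding genes among the 20 highest of all, CFTR, the 3 most abundant and the most variable member (mean of at least 5 TPM) of each list, members at 3 or fewer counts, the genes of the pairs, the 15 highest and 15 lowest CVs, Y-linked genes, and the 3 reference genes with the lowest and the highest CV. Words of 31 bases shared between transcripts of different symbols were counted in RefSeq sequences. Promoters were read at the RefSeq starts. Depth was 37975426 to 48454375 estimated counts.

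Alternatives were TPM with RN18S kept, scaling to protein-coding genes, transcripts under 300 bases left out, edgeR TMM and DESeq2 size factors, each library left out, only pigs 12 to 18, all 23 libraries, other pseudocounts (1 and 0.01), other level minimums, the SD of log2 values and edgeR's dispersion. Summing symbols with an added number, and the label check under other scalings, were chosen after seeing the data. Results for some genes and 1 sequence are not reported here, so 6 of the 29 pairs are not drawn. Code was tested on simulated data. Tools were Python 3.11.15, numpy 2.4.6, pandas 2.3.3, scipy 1.17.1, matplotlib 3.10.9, pysam 0.24.0, R 4.3.3, edgeR 4.0.16, limma 3.58.1 and DESeq2 1.42.0.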

Additional observations from a re-analysis of the deposited data

Results flagged for a closer look

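In 28 of 279 sets of 6 values (10%) 1 library lay far from the other 5. Chance alone gives about 1 in 20, but genes here include those chosen for the highest CVs, and over all 10384 genes of the variability set the share was 3.84% (399 genes). These were 22 of 209 genes, 4 of 34 lists, 0 of 29 pairs and 2 of 7 library measures. Of the 22 genes 12 were high and 1 was low in WT12, while over all 10384 genes 45 were far on the high side and 61 on the low side in WT12.

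In WT12, RN18S took 7.11% of the estimated counts and 3.46% of the TPM, against at most 0.396% and 0.182% in the other 5 libraries. Its 5.8S ribosomal RNA, RN5-8S, was 10878 TPM, and LOC102158335 was 8929 TPM. Immediate early genes summed to 599 TPM in WT12, with FOS at 168 TPM, DUSP1 at 86.4 TPM, EGR1 at 59.6 TPM, BTG2 at 30.1 TPM and JUNB at 15.2 TPM. WT12 also had the highest levels of ATOH7 (108 TPM) and RBP2 (45.1 TPM). Beta globin, HBB, was 561 TPM in WT12 against 210.2 to 337 TPM in the other 5. Principal cell genes summed to 417 TPM, and the ammonia channel RHCG was 33.1 TPM against at most 23.3 TPM. The muscle gene TNNT3 was 1.79 TPM against at most 1.19 TPM. GPX3 was low in WT12, at 878 TPM against at least 1712 TPM.

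In WT22, CALB1 was 511 TPM against at most 269 TPM, and the ureteric bud tip list that holds it summed to 555 TPM. AFP was 19.5 TPM there against at most 8.59 TPM, and SLC5A2 was low at 46.4 TPM against at least 56.9 TPM. In WT17, adipocyte genes summed to 76.1 TPM, FABP4 was 46.3 TPM against at most 17.5 TPM, and FCGRT was 194 TPM against at least 206 TPM, though WT17 was lowest for it in only 4 of 6 scalings. In WT18, SLC7A8 was 80.4 TPM against at most 56.5 TPM, LBP was 18.9 TPM against at most 5.96 TPM, and TH, of catecholamine synthesis, was 2.16 TPM against at most 1.15 TPM. In WT16, MMP7 was 45.6 TPM against at most 8.09 TPM. What sets these libraries apart was not tested.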

How the results depend on the processing

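Levels, CVs and the least variable genes changed with the scaling. With only protein-coding genes in the scaling, or without transcripts under 300 bases, the median gene moved by 1.26 and 1.19 on the log2 scale, the proximal tubule sum was 12420.5 TPM and 11831 TPM, the median CV 13.3% and 13.1%, and 9 and 9 of the 15 most variable genes stayed. TMM and DESeq2 gave median CVs of 12.7% and 12.7% and all 23 libraries 15.6%. Leaving out 1 library gave 12.9% to 14.9%. Of the 15 highest CVs 15 stayed under TMM and DESeq2, 14 with RN18S kept, 10 in pigs 12 to 18 and by edgeR's dispersion, 3 over all 23 libraries, 9 by the SD of log2 values, 7 and 4 with minimums of 1 and 20 TPM, and 6 to 13 without 1 library. Of the 15 lowest 8 stayed with RN18S kept, 0 under the other 4 scalings, over all 23 libraries or by edgeR's dispersion, 2 in pigs 12 to 18, 14 by the SD of log2 values, 13 and 5 with minimums of 1 and 20 TPM and 3 to 6 without 1 library. The highest library stayed the same under 6 scalings for 24 of 34 lists and the lowest for 15. CVs of list sums moved both ways with only protein-coding genes in the scaling. For example, that of the proximal tubule fell from 15.4% to 8.22%. Those of the thick ascending limb and of principal cells rose from 11.0% to 18.9% and from 15.1% to 25.0%. With LDHB entries summed, chosen after seeing the data, LDHB to LDHA turned to 3.83. Of the 26 pairs with 1 gene higher in every library, 24 stayed so over all 23 libraries, 25 with entries summed, where LDHB to LDHA reversed, and 26 under every other alternative. CFTR stayed lowest in all 6 libraries labelled WT, and 7SL RNA held 45.0% to 48.2% of TPM, with no value in the 2 scalings that leave it out. Without WT12 the mean of FOS fell from 31.1 to 3.75 TPM and that of LOC102158335 from 2433 to 1133 TPM. The causes of the changes were not tested. Depth limits genes near 3 counts. With 6 libraries no p under 0.031 can be reached.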

Other observations

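Genes that low oxygen induces, 13 of 14 with a mean of at least 1 TPM, summed to 421 ± 40.2 TPM, highest in WT23, though 6 of the 13 were highest in WT22 and 2 in WT23, against 26.6% and 13.6% of all 14173 protein-coding genes. The CV of this sum fell from 9.55% to 3.25% with only protein-coding genes in the scaling, and to 2.91% without transcripts under 300 bases. VEGFA led with 96.9 ± 21 TPM, followed by NDRG1 (95.9 ± 12.1 TPM) and BNIP3 (85.3 ± 9.78 TPM), which takes part in the removal of mitochondria. ANGPTL4, an inhibitor of lipoprotein lipase, had the highest CV of the list, 61.3%, and ranged from 6.98 TPM through a median of 9.39 TPM to 25.7 TPM in WT22.

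Genes known to rise in injured tubules had 13 of 14 members with a mean of at least 1 TPM and a sum of 1189 ± 239 TPM, from 811 TPM in WT12 to 1479.6 TPM in WT18, though 5 of the 13 were highest in WT17 and 2 in WT18, against 17.1% and 25.4% of all 14173. SPP1, osteopontin, gave 45.2% of it and ranged from 275 TPM in WT12 through a median of 458 TPM to 925 TPM in WT18. KRT19, a keratin of collecting ducts, ranged from 117 TPM through a median of 127 TPM to 144 TPM in WT16. HMOX1 was the most uneven member, high in WT22 and WT23.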
